A study of Mus musculus with 2 samples.

Results

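Slc1a2, Slc1a3, Glul, Slc6a11 and Slc6a9 take up or convert the amino acid transmitters glutamate, GABA and glycine. They are 5 of the 32285 genes in the deposited count tables, found there by gene symbol. Their UMI counts (unique molecular identifiers, 1 per captured RNA molecule) were read in barcodes that held 1000 UMIs and 500 detected genes or more, with mitochondrial UMIs making up 10% or less. They were compared across cell types defined by markers, across astrocyte regions and between 2 genotypes.

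Neurons release glutamate, GABA and glycine at synapses, and astrocytes remove much of what is released. Slc1a2 and Slc1a3 encode sodium-coupled carriers that bring glutamate into the astrocyte, where glutamine synthetase, the product of Glul, joins it with ammonia to make glutamine that is handed back to neurons. Slc6a11 encodes a GABA carrier of astrocytes, and Slc6a9 encodes a glycine carrier found mainly in glia. Astrocytes of different brain regions are known to differ in their carriers.

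The libraries come from dissociated whole brain of 6-month-old mice that all carry APP-KI, knocked-in APP alleles used to model Alzheimer's disease. In 1 library Fit2 was intact (Fit2-WT) and in the other it was mutated (Fit2-Mut), in a study of the loss of macrophage Fit2, a gene of lipid droplet formation listed in the tables as Fitm2. The number of animals per library, the deleted part of the gene and the promoter that limits the mutation to macrophages are not given in the labels. With 1 library per genotype there is no replicate, so no test between genotypes is made and all intervals below are 95% intervals that cover counting error only.

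The Fit2-WT library held 52491901 UMIs and gave 5209 cells, and the Fit2-Mut library held 63234140 UMIs and gave 5824 cells. All but 3 of the 28 clusters were given 1 of 16 type names from marker lists, written "like" because they rest on markers alone, and those 3, with 211 cells, stayed unnamed. All 5 genes and 33 further genes of transmitter handling were left out of the clustering and of the marker lists, so neither the types nor the regions were drawn with them. The libraries shared 9 cell barcodes. Fitm2 was checked first: the microglia-like cells of Fit2-WT held 16 of its UMIs (2.81 UMIs per 1000000 UMIs of the group, CPM) and those of Fit2-Mut held 1 (0.147 CPM). Astrocyte-like cells held 71 and 90 (11.7 and 10.7 CPM). Since the deleted part is not given, 3' counts of Fitm2 check the labels only in part.

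The astrocyte-like cells numbered 1201 in Fit2-WT and 1459 in Fit2-Mut, and all 10 astrocyte markers had UMIs in both libraries, with a summed level of 10500.0 and 10891 CPM. Markers of other types were also present in them. The 9 choroid plexus markers summed to 2385 and 2619 CPM with none at 0, but 9289 of the 14474 UMIs in Fit2-WT and 15468 of the 22003 in Fit2-Mut came from the 6 and 10 cells of 1 subcluster (number 7). Without subclusters 7 and 8 the sum was 866 and 793 CPM. The 10 oligodendrocyte markers summed to 181 and 171 CPM, also with none at 0. Of the 7 OPC markers, Pdgfra and Gpr17 were at 0 in Fit2-WT and none was at 0 in Fit2-Mut. The part of such RNA in the levels of the clearance genes was not tested beyond the subtraction of free RNA.

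The stretches of DNA before the starts of 4 of the genes are shown because these genes divide by astrocyte region in the results that follow: Slc1a3 and Glul were higher in telencephalic-like astrocytes, and Slc6a11 and Slc6a9 in non-telencephalic-like ones. They are the 250 bases before the start in the RefSeq table (GRCm38.p6), 5′ to 3′ on the gene's own strand. They lie at chr15:8710808-8711057 (minus strand) for Slc1a3, chr1:153899679-153899928 (plus) for Glul, chr6:114130991-114131240 (plus) for Slc6a11 and chr4:117835008-117835257 (plus) for Slc6a9. Capitals mark the nuclear factor I half-site TTGGC and the SOX core ACAAT, each searched on both strands (as GCCAA and ATTGT on the other).
Slc1a3: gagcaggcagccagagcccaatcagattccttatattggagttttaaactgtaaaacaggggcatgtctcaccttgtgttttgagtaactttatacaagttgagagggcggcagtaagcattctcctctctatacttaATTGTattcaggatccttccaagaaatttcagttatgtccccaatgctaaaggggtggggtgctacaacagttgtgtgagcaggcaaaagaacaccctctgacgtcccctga
Glul: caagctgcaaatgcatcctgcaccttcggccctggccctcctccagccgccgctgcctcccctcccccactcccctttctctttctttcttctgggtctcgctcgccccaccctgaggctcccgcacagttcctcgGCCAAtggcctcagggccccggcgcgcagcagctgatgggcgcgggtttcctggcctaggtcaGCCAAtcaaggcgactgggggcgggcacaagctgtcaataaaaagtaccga
Slc6a11: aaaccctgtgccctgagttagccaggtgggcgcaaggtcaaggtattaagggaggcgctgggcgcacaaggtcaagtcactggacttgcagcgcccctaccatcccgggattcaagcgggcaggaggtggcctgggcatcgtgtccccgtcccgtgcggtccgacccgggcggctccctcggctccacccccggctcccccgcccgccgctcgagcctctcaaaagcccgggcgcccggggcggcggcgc
Slc6a9: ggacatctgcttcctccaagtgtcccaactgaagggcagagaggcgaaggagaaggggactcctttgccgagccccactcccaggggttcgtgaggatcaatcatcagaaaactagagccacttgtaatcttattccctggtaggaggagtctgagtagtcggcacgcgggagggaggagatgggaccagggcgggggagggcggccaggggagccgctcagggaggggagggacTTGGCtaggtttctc

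All 5 genes matched the table, with 7 starts in all, 3 of them for Slc6a9. The stretch shown for Slc6a9 belongs to the start nearest the gene's 5′ end, and the only Slc1a2 start in the table, at chr2:102706438, lies inside the gene and is not shown. The half-site was found 1 time in the Slc6a9 stretch, 2 times in that of Glul and in neither of the other 2 stretches. Both Glul matches overlap a CCAAT box, since GCCAAT holds the letters of both. The SOX core was found 1 time, before Slc1a3. Of all 32851 stretches of this length in the table, 41.5% held the half-site and 27.7% the SOX core, so single matches of this kind are common. The stretches differ in base composition: G and C made up 44.8% of the Slc1a3 stretch, with 2 CpG, and 71.2% of the Slc6a11 stretch, with 25 CpG. Glul had 64.8% and 15 CpG and Slc6a9 60.4% and 9 CpG, beside medians of 52.4% and 6 CpG over all stretches.

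The glutamate carrier Slc1a2 (chr2:102658659-102790784, plus strand, GRCm38) marked the astrocyte-like cells. These cells held 96.6% (Fit2-WT) and 96.1% (Fit2-Mut) of all its cell UMIs. Its level in them was 5667 CPM (interval 5608 to 5727) in Fit2-WT and 5299 CPM (5250 to 5349) in Fit2-Mut. The next type in order, the neuroblast-like cells, had 143 and 170 CPM. Below the astrocyte-like cells, every type's interval overlapped that of the next type in the order, so no order among the other types can be read. In cells thinned to 1000 UMIs each, 95.3% of Fit2-WT and 95.1% of Fit2-Mut astrocyte-like cells had a Slc1a2 UMI, against 2.93% and 2.86% of microglia-like cells. Without thinning, at median depths of 4381 and 5131 UMIs, the shares in astrocyte-like cells were 99.2% and 99.5%. In microglia-like cells, at 9690 and 11019 UMIs, they were 14.3% and 12%.

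RNA free in the suspension was read from barcodes with 10 to 100 UMIs, too few for a cell, and these held Slc1a2 at 2272 and 1944 CPM. In T cell-like cells, where choroid plexus markers put free RNA at 1.78% (Fit2-WT) and 1.81% (Fit2-Mut) of UMIs, it would give 40.4 and 35.1 CPM of Slc1a2. The measured levels there were 32.4 CPM (21.5 to 46.9) and 52.4 CPM (38.3 to 70.2). The interval held the prediction in Fit2-WT and lay above it in Fit2-Mut. Judged in this way, Slc1a2 lay above free RNA in both libraries in 2 of 16 types, astrocyte-like and neuron-like. The neuron-like cells numbered only 24 and 37, and their cluster also held OPC genes. The estimate is coarse in small types: in monocyte-like cells it put Slc1a2 at 808 CPM in Fit2-WT and 34.2 CPM in Fit2-Mut.

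Slc6a11, the GABA carrier (chr6:114131241-114249952, plus), was placed like Slc1a2. Its level in astrocyte-like cells was 1379 CPM (1349 to 1409) in Fit2-WT and 1365 CPM (1340 to 1391) in Fit2-Mut, with 97.2% and 96.5% of its cell UMIs in them. Outside them it lay between 0 and 39.6 CPM in Fit2-WT and between 0.823 and 76.8 CPM in Fit2-Mut. It lay above the free RNA estimate in both libraries only in the astrocyte-like cells, 1 of 16 types. In thinned cells 64.1% and 64.6% of astrocyte-like cells had a UMI of it, against 0.549% and 0.714% of microglia-like cells. The unthinned shares were 88.8% and 91.3% in astrocyte-like cells and 5.13% and 6.25% in microglia-like cells.

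The second glutamate carrier, Slc1a3 (chr15:8634124-8710764, minus), was also highest in astrocyte-like cells, with a smaller share of its UMIs there. Its level there was 2442 CPM (2403 to 2482) in Fit2-WT and 2196 CPM (2165 to 2228) in Fit2-Mut, and these cells held 88.1% and 88.0% of its cell UMIs. It stood at 101 and 86.7 CPM in oligodendrocyte-like and at 86.1 and 84.4 CPM in microglia-like cells, above the free RNA estimate. In ependymal-like cells its 121 and 111 CPM did not lie above that estimate in both libraries. The ratio of Slc1a3 to Slc1a2 in oligodendrocyte-like and microglia-like cells differed from that of free RNA. Free RNA held 0.28 Slc1a3 UMIs per Slc1a2 UMI in Fit2-WT and 0.276 in Fit2-Mut, whereas microglia-like cells held 4.38 and 3.37 and oligodendrocyte-like cells 3.02 and 2.72. Ependymal-like cells held 136 and 161 Slc1a3 UMIs beside 111 and 106 of Slc1a2, also a higher ratio than that of free RNA. In T cell-like cells, by contrast, the ratio was 0.321 and 0.178, close to or below that of free RNA. Slc1a3 lay above the free RNA estimate in both libraries in 5 types, the astrocyte-, oligodendrocyte-, microglia-, neuron- and border-associated macrophage-like cells. Its levels in the few neuron-like cells were far apart, at 29.8 CPM in Fit2-WT and 156 CPM in Fit2-Mut. In fibroblast-like cells the libraries differed, with 388 and 68.6 CPM, but 72.4% of the Fit2-WT UMIs lay in 5 of 59 cells and the median cell had none.

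Glul (chr1:153899944-153909723, plus), the enzyme that makes glutamine, was the most widely spread of the 5. Astrocyte-like cells held 29.4% and 31.0% of its cell UMIs. It was highest in oligodendrocyte-like cells, at 1827 CPM (1796 to 1858) in Fit2-WT and 1743 CPM (1717 to 1768) in Fit2-Mut. Astrocyte-like cells followed at 1437 CPM (1407 to 1467) and 1406 CPM (1380 to 1431). Endothelial-like cells had 832 and 631 CPM, fibroblast-like cells 405 and 388 CPM, microglia-like cells 292 and 297 CPM and choroid plexus-like cells 204 and 204 CPM. The intervals of each of the first 5 types in this order lay apart from those of the next. Glul UMIs numbered 54.6 per Slc1a2 UMI in oligodendrocyte-like cells of both libraries and 11.2 and 8.48 in endothelial-like cells, against 0.34 and 0.432 in free RNA. In thinned cells, 69.6% and 70.1% of oligodendrocyte-like cells, 55% and 57.6% of astrocyte-like cells and 43.8% and 37.4% of endothelial-like cells had a Glul UMI. The share fell to 2.16% and 2.70% in T cell-like cells. Without thinning these shares were 94.8% and 94.8%, 82.5% and 85.8%, 78.9% and 71.5%, and 13% and 15.7%, in the same order. Glul lay above the free RNA estimate in both libraries in 9 types.

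Within microglia-like cells Glul and Slc1a3 differed between clusters, which were compared after their values had been seen. Cluster 14, led by the homeostatic genes Tmem119 and P2ry12, had Glul at 863 CPM (102 cells) in Fit2-WT and 740 CPM (105 cells) in Fit2-Mut. Cluster 7, led by Spp1, Gpnmb, Itgax and Cst7, genes of microglia near amyloid plaques, had 223 CPM (303 cells) and 242 CPM (336 cells). The ratio of cluster 14 over cluster 7 was 3.87 (3.49 to 4.29) in Fit2-WT and 3.05 (2.78 to 3.35) in Fit2-Mut. Slc1a3 was also higher in cluster 14, at 160 against 84.7 CPM in Fit2-WT and 142 against 82.1 CPM in Fit2-Mut, ratios of 1.88 (1.51 to 2.33) and 1.72 (1.41 to 2.10). Of the 4 clearance genes with at least 20 UMIs in these clusters, 2, Glul and Slc1a3, were thus at least 1.5-fold higher in cluster 14 in both libraries. So were 29.5% of all genes tested in Fit2-WT and 26.2% in Fit2-Mut, a large background, and the median log2 ratio over all genes was 0.26 and 0.23. Slc1a2 was past 1.5-fold lower in Fit2-Mut, at 0.493 (0.249 to 0.888) from 141 UMIs in cluster 7 and 12 in cluster 14, and not in Fit2-WT, at 0.876 (0.419 to 1.66). Of all genes, 14.6% and 14% passed it lower. Median depth was 6477 and 7358 UMIs in cluster 14 and 13137 and 14824 in cluster 7.

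Slc6a9 (chr4:117834506-117875198, plus), the glycine carrier, was shared by astrocyte-like and oligodendrocyte-like cells. Its level was 149 CPM (139 to 159) in Fit2-WT and 145 CPM (136 to 153) in Fit2-Mut in astrocyte-like cells, which held 53.3% and 55% of its cell UMIs. Oligodendrocyte-like cells followed at 94.1 CPM (87.2 to 101) and 84.3 CPM (78.8 to 90.1), apart from the astrocyte-like cells and from the ependymal-like cells at 39.2 and 39.9 CPM. Oligodendrocyte-like cells held 2.82 and 2.64 Slc6a9 UMIs per Slc1a2 UMI, against 0.038 and 0.0513 in free RNA. The other types lay between 0 and 11.9 CPM. In thinned cells 13.6% and 12.6% of astrocyte-like cells and 6.52% and 7.43% of oligodendrocyte-like cells had a Slc6a9 UMI. Of the 546 and 560 thinned microglia-like cells none had 1, and 3 cells of the total, the limit taken for a count of 0, would be 0.549% and 0.536%. This limits the share with a UMI at that depth, not the share expressing the gene. Unthinned, the shares were 39.6% and 43.2% in astrocyte-like cells, 53.0% and 53.0% in the deeper oligodendrocyte-like cells, and 1.47% and 1.43% in microglia-like cells.

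**Figure D1:**
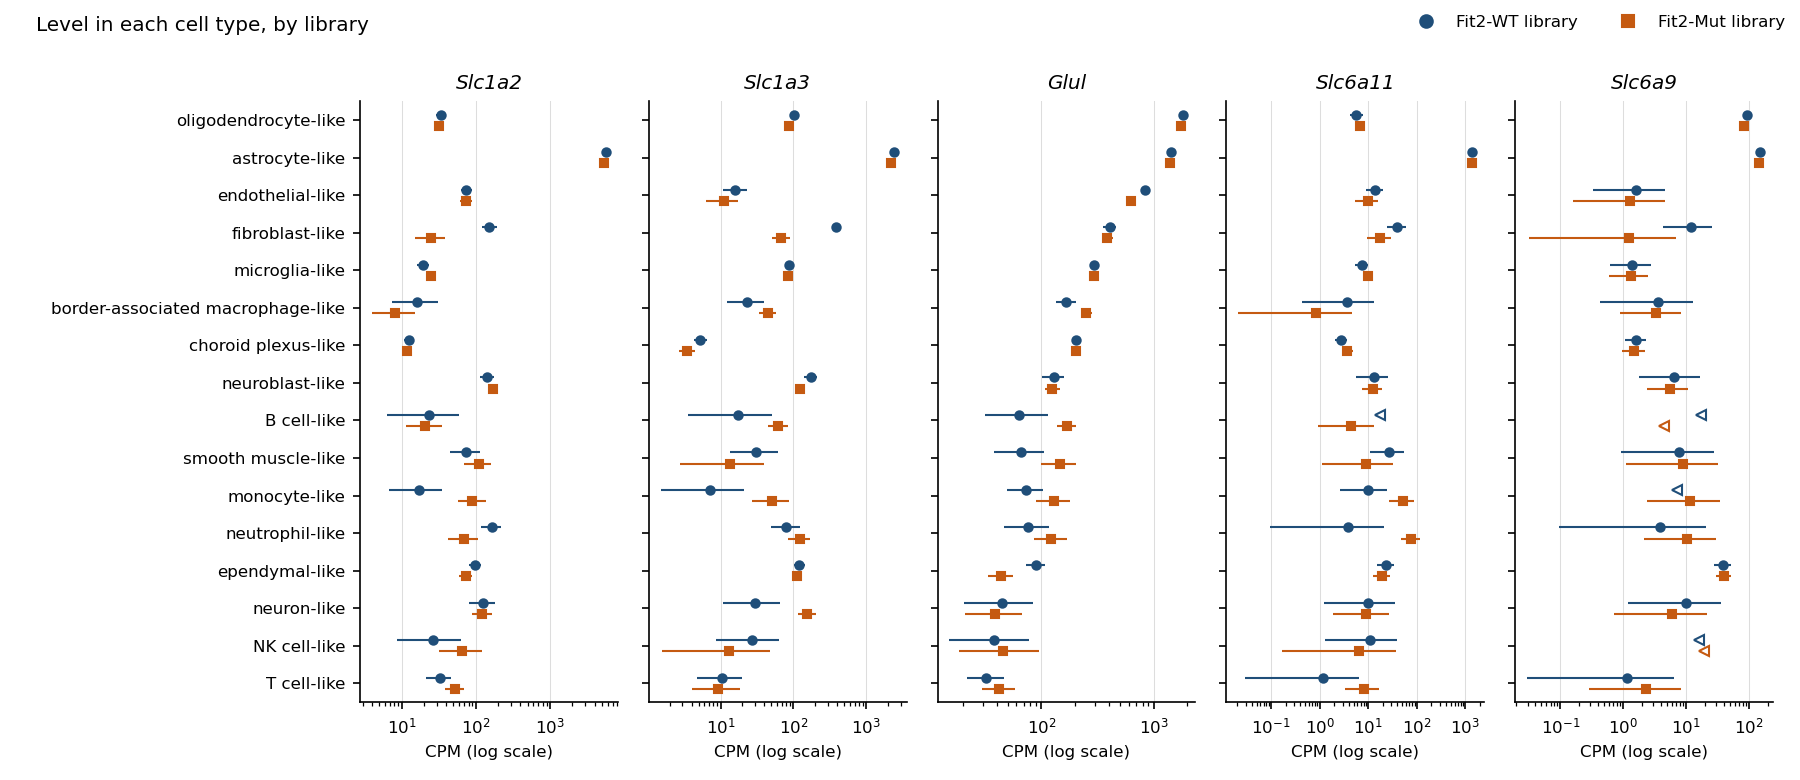
Level of each gene in the 16 cell types. The horizontal axis is CPM on a log scale with its own range per panel, points are the summed count of 1 library, and bars are exact Poisson 95% intervals, hidden where smaller than the point. Open triangles stand at 3 UMIs where a type had none. Slc1a2 and Slc6a11 stand out in astrocyte-like cells, whereas Glul is highest in oligodendrocyte-like cells and Slc6a9 is second there.

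Over the 16 types, with both libraries averaged as log2(CPM + 1), the profile of Slc1a2 was closest to that of Slc6a11 (Pearson r 0.918, the highest of 14108 genes with at least 200 UMIs). Among the other pairs of the 5 genes, r ranged from 0.275 for Slc1a2 with Glul to 0.773 for Slc1a2 with Slc1a3. The 3 genes most like each member were, for Slc1a3, A830019P07Rik, Hdac8 and Dhtkd1 (0.868 to 0.886), and for Glul, Lap3, Apln and Mtmr10 (0.829 to 0.840). For Slc1a2 they were Slc6a11, Adcyap1r1 and Shc3 (0.908 to 0.918). Slc6a11 was closest to Gm41836, Ntsr2 and Hrh1 (0.920 to 0.931), and Slc6a9 to Kcnj10, Npas3 and Fam228b (0.910 to 0.947). Kcnj10 encodes a potassium channel of glia, and Ntsr2 is an astrocyte marker that helped to name the types. These r values describe 16 types that share libraries and differ in depth.

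Astrocyte-like cells fell into 9 subclusters. Subcluster 2 (235 Fit2-WT and 267 Fit2-Mut cells) met all 5 telencephalic markers, among them the forebrain transcription factor Lhx2. Subcluster 1 (255 and 433 cells) met all 5 non-telencephalic markers, such as Agt (angiotensinogen) and Sparc. Subcluster 6 (27 and 28 cells) met the 3 markers of Bergmann glia, the radial astrocytes of the cerebellum. The other 6 stayed unnamed. Subclusters 0 (344 and 419 cells) and 3 (243 and 207 cells) had 0.278% to 0.380% of UMIs in ribosomal protein genes, against 1.35% to 2.30% in subclusters 1 and 2. They also had lower median depth, 2953 to 4183 UMIs, and are called low-ribosomal here. Subclusters 7 and 8, with 16 and 8 cells in all, carried choroid plexus or endothelial genes.

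All 5 genes divided the telencephalic-like from the non-telencephalic-like astrocytes, and in opposite directions. Slc1a2 had 7719 CPM in telencephalic-like and 4218 CPM in non-telencephalic-like astrocytes of Fit2-WT, and 8095 and 3960 CPM in Fit2-Mut. Slc1a3 had 3346 and 1791 CPM in Fit2-WT and 3132 and 1600 CPM in Fit2-Mut. Glul had 2686 and 1393 CPM, then 2532 and 1337 CPM. These 3 genes of glutamate uptake and glutamine synthesis were higher in telencephalic-like cells in each library, and no interval of 1 region overlapped that of the other. The carriers of the inhibitory transmitters were placed the other way. Slc6a11 had 569 CPM in telencephalic-like and 2132 CPM in non-telencephalic-like astrocytes of Fit2-WT, and 495 and 2122 CPM in Fit2-Mut. Slc6a9 had 43.1 and 287 CPM, then 43.5 and 239.6 CPM.

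As a ratio of non-telencephalic-like over telencephalic-like cells, Slc1a2 was at 0.546 (0.530 to 0.563) in Fit2-WT and 0.489 (0.478 to 0.501) in Fit2-Mut. Slc1a3 was at 0.535 (0.511 to 0.560) and 0.511 (0.492 to 0.531), and Glul at 0.518 (0.492 to 0.546) and 0.528 (0.506 to 0.551). Slc6a11 was at 3.75 (3.48 to 4.04) and 4.29 (4.01 to 4.58), and Slc6a9 at 6.66 (5.17 to 8.70) and 5.51 (4.43 to 6.93). So 2 of the 5 genes were at least 1.5-fold higher and 3 at least 1.5-fold lower in each library. Among all genes tested, 29.5% passed 1.5-fold in either direction in Fit2-WT (14.6% higher, 14.9% lower) and 26.6% in Fit2-Mut (13.2% higher, 13.4% lower). The repeat in the second library is a repeat of the measurement in other cells, with the same markers choosing the regions. Ribosomal protein genes made up 2.30% and 2.14% of UMIs in telencephalic-like and 1.36% and 1.35% in non-telencephalic-like cells. Median mitochondrial shares were 2.93% and 3.11% against 3.98% and 4.13%. The part of these differences in the ratios was not tested.

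The division was then read cell by cell. In Fit2-WT the middle 50% of telencephalic-like cells had Slc6a11 between 238 and 798 CPM, and that of non-telencephalic-like cells between 1552 and 2853 CPM. In Fit2-Mut the ranges were 210.0 to 693 CPM and 1492 to 2778 CPM. For Slc1a2 they ran from 5254 to 9636 CPM against 2832 to 4917 CPM in Fit2-WT, and from 5346 to 9982 CPM against 2559 to 4920 CPM in Fit2-Mut, so for both carriers these ranges did not overlap. Those of Glul and Slc1a3 overlapped between the regions. For Glul they were 1677 to 3437 CPM against 709 to 1881 CPM in Fit2-WT, and for Slc1a3 2304 to 4141 CPM against 885 to 2799 CPM. Slc6a9 was too sparse for this reading, with a median of 0 in telencephalic-like cells. In thinned cells 3.83% and 2.62% of telencephalic-like cells had a Slc6a9 UMI, against 25.9% and 20.8% of non-telencephalic-like cells. The unthinned shares were 23.8% and 26.6% against 72.2% and 70.7%.

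Markers of other types were read in the same regions. The 9 choroid plexus markers, 8 of them with UMIs in each region and library, summed to 679 and 614 CPM in telencephalic-like and 760 and 726 CPM in non-telencephalic-like astrocytes. Kcne2 was at 0 in the former in both libraries, and Folr1 (Fit2-WT) and Aqp1 (Fit2-Mut) in the latter. The 10 oligodendrocyte markers, none at 0, summed to 164 and 154 against 224 and 206 CPM. The 7 OPC markers differed by more than either list, with 17.2 and 16.5 CPM in telencephalic-like and 145 and 178 CPM in non-telencephalic-like astrocytes. Most of these UMIs were of Lhfpl3 (182 of 226 and 426 of 495 in non-telencephalic-like cells) and Cacng4 (40 and 63). The defining OPC markers were at or near 0 there: Pdgfra had 0 and 1 UMIs, Cspg4 3 and 5, and Neu4 and Gpr17 none. Where regions were set per cell by the larger of the 2 marker lists' UMIs, which also takes in the low-ribosomal cells, the log2 ratios of Slc6a11 were 1.18 and 1.35 in place of 1.91 and 2.10. Those of Slc6a9 were 1.89 and 1.72 in place of 2.74 and 2.46. With cells thinned to 1000 UMIs, the Slc6a9 value in Fit2-Mut was 3.14.

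**Figure D2:**
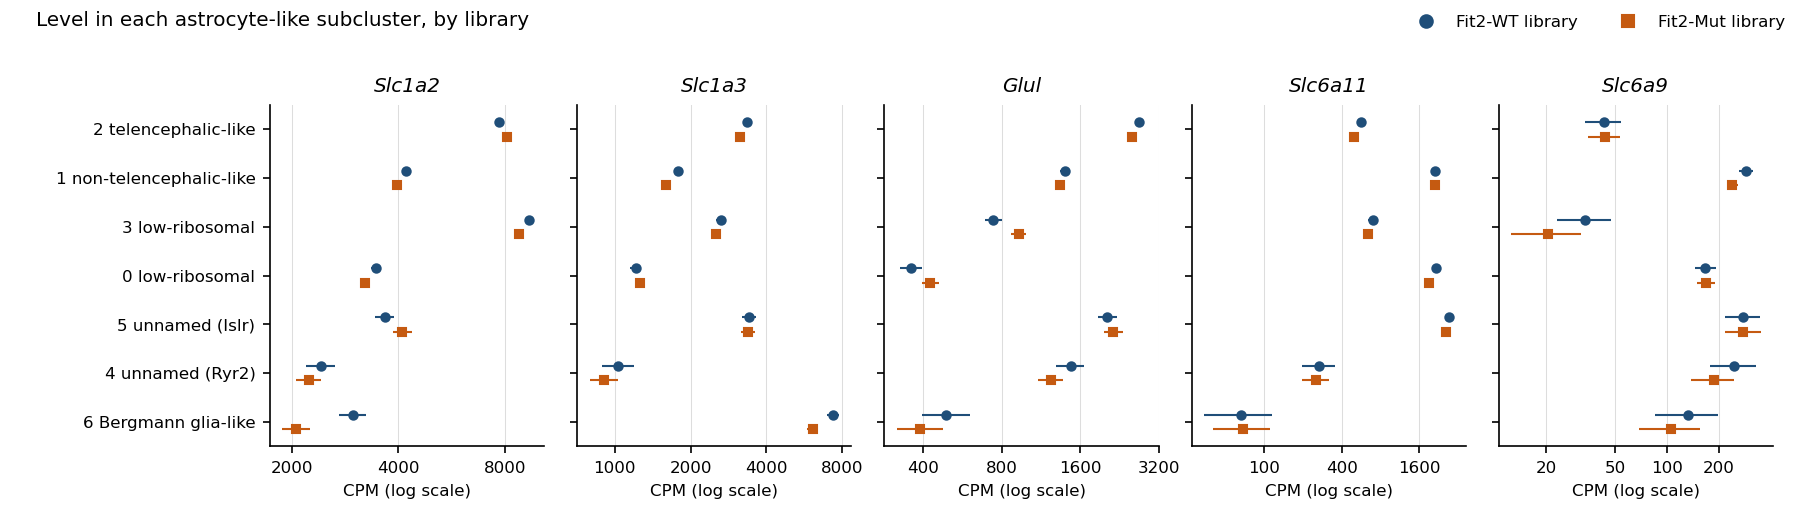
Level of each gene in 7 astrocyte-like subclusters. The horizontal axis is CPM on a log scale with its own range per panel, points are the summed count of 1 library, and bars are exact Poisson 95% intervals. The order of subclusters is nearly the same in both libraries for each gene. Slc6a11 is low in subclusters 2, 3, 4 and 6 and high in 0, 1 and 5, and Slc1a3 is highest in the Bergmann glia-like cells.

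The low-ribosomal subclusters showed a division of the same kind. Subcluster 3 held the telencephalic gene Lhx2 (96.7 and 107.5 CPM), though it met only 1 of the 5 markers by the naming rule. Subcluster 0 held Itih3 (478 and 431 CPM, against 152 and 130 CPM in subcluster 2) and met none. Its Sparc level, 238 and 268 CPM, was that of subcluster 2, at 239 and 266 CPM, and did not set it apart. Slc1a2 had 9326 CPM in subcluster 3 and 3449 CPM in subcluster 0 of Fit2-WT, and 8784 and 3222 CPM in Fit2-Mut. Slc6a11 had 696 and 2152 CPM, then 645 and 1902 CPM. The ratio of subcluster 0 over 3 in Fit2-WT and Fit2-Mut was 0.370 and 0.367 for Slc1a2, 0.460 and 0.503 for Slc1a3, and 0.482 and 0.458 for Glul. It was 3.09 (2.84 to 3.37) and 2.95 (2.71 to 3.22) for Slc6a11 and 4.96 (3.40 to 7.45) and 8.21 (5.21 to 13.7) for Slc6a9. All 5 passed 1.5-fold in both libraries, in the direction seen between regions, 2 higher and 3 lower. Of all genes, 15.1% and 16.1% passed it higher and 13% and 13% lower. The OPC markers differed here as well, with 296 and 294 CPM in subcluster 0 and 50.5 and 26.6 CPM in subcluster 3. Lhfpl3 made up 288 of 351 and 363 of 458 of these UMIs in subcluster 0, and Pdgfra and Gpr17 had none in either subcluster. Oligodendrocyte markers summed to 118 and 114 against 65.2 and 66.6 CPM, and choroid plexus markers to 1215 and 1118 against 956 and 863 CPM. The part of such RNA in these ratios was not tested. This pair of subclusters was compared after its values had been seen.

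Glul was much lower in the low-ribosomal cells than in the named regions. It had 743 and 929.7 CPM in subcluster 3 against 2686 and 2532 CPM in subcluster 2, and 358 and 425 CPM in subcluster 0 against 1393 and 1337 CPM in subcluster 1. Slc1a2 differed in direction between these pairs. It was at 9326 and 8784 CPM in subcluster 3, above its level in subcluster 2, but in subcluster 0 it lay below its level in subcluster 1 in both libraries.

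In Bergmann glia-like cells the 2 glutamate carriers parted. Slc1a3 had 7364 CPM in Fit2-WT and 6101 CPM in Fit2-Mut, against 2290 and 2078 CPM in the other astrocyte-like cells, ratios of 3.22 (3.04 to 3.40) and 2.94 (2.78 to 3.10). Slc1a2 had 2971 and 2059.5 CPM, 0.517 (0.474 to 0.563) and 0.382 (0.349 to 0.417) times the level of the others. Glul was at 491 and 390 CPM, ratios of 0.335 and 0.272. Slc6a11 was nearly missing, with 12 UMIs in 27 cells and 17 UMIs in 28 cells (66.1 and 69.1 CPM), ratios of 0.0466 (0.0241 to 0.0815) and 0.0492 (0.0286 to 0.0788). Slc6a9 was not set apart, at 132 and 106 CPM, with ratios of 0.887 (0.565 to 1.33) and 0.725 (0.472 to 1.07). So 1 gene was past 1.5-fold higher and 3 lower in each library. All genes tested had medians of -0.08 and -0.16 as log2 ratios, and 25.8% (Fit2-WT) and 21.7% (Fit2-Mut) were higher, and 32% and 33% lower. Every thinned Bergmann glia-like cell had a Slc1a3 UMI, as did every unthinned one.

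Subcluster 5 (42 and 35 cells) was led by St18, Sphk1 and Islr. It met 2 of the 5 telencephalic markers, too few for a name, so its region was not set. Beside the telencephalic-like cells, it did not share their pattern. Its Slc6a11 level was 2735 and 2559 CPM, 4.81 (4.36 to 5.30) and 5.17 (4.69 to 5.70) times that of telencephalic-like cells. Slc6a9 was at 275 and 278 CPM, 6.39 (4.56 to 8.97) and 6.39 (4.64 to 8.77) times theirs, and Slc1a2 at 3659 and 4108 CPM, 0.474 and 0.508 times. Slc1a3, at 3423 and 3388 CPM, had ratios of 1.02 (0.954 to 1.10) and 1.08 (1.01 to 1.16), and Glul had 0.756 and 0.848. The 2 inhibitory-transmitter carriers passed 1.5-fold higher and Slc1a2 passed it lower, in both libraries. Of all genes, 15.9% and 17.4% passed it higher and 32.1% and 29% lower. Oligodendrocyte markers were also higher in subcluster 5, at 424 and 383 CPM against 164 and 154 CPM, and OPC markers at 65.2 and 150.1 CPM against 17.2 and 16.5 CPM, Cacng4 being 15 of 18 and 20 of 40 UMIs. Their part in the Slc6a9 ratio was not tested. Subcluster 4 (44 and 57 cells), led by Ryr2, Nkain3 and Otof, kept Slc6a9 (245 and 186 CPM) with little Slc6a11 (267 and 253 CPM). In these 2 small groups, then, Slc6a9 did not follow Slc6a11 from 1 to the other. Both were chosen for description after their values had been seen.

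The wider list of 33 carrier, enzyme and ion-handling genes was read in the same 2 regions. Of these, 18 had at least 20 UMIs in both regions together in each library, and 15 did not, among them the vesicular carriers of neurons and the glycine carrier Slc6a5, which had no UMI. In each library 5 of the 18 were at least 1.5-fold higher in non-telencephalic-like cells and 3 at least 1.5-fold lower, beside 14.6% and 13.2% of all genes higher and 14.9% and 13.4% lower. The list had a median log2 ratio of -0.05 in Fit2-WT and -0.04 in Fit2-Mut, beside -0.02 and -0.03 over all genes tested. Abat, which breaks GABA down, was among the 5 higher genes, with ratios of 2.04 (1.72 to 2.42) and 1.83 (1.60 to 2.09). Kcnj10 had 2.42 (2.06 to 2.85) and 2.33 (2.06 to 2.66), and Atp1b2, a subunit of the sodium pump, 1.91 (1.79 to 2.05) and 2.12 (2.0 to 2.24). Slc38a1, a glutamine carrier, had 1.51 (1.05 to 2.18) and 3.32 (2.40 to 4.68).

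Gldc, the glycine-splitting subunit of the glycine cleavage system, ran against the glycine carrier between the named regions. It had 220.3 CPM (358 UMIs) in telencephalic-like and 27.7 CPM (43 UMIs) in non-telencephalic-like cells of Fit2-WT, a ratio of 0.126 (0.0893 to 0.173). In Fit2-Mut it had 225 and 30.5 CPM, a ratio of 0.135 (0.106 to 0.171). The other subunits did not follow it as far: Gcsh had 0.686 (0.530 to 0.885) and 0.830 (0.680 to 1.01), Amt 0.631 (0.394 to 0.997) and 0.970 (0.670 to 1.41), and Dld 0.976 and 0.812. Of the genes near Glul in the glutamine cycle, the glutamine carrier Slc38a3 had 0.734 (0.611 to 0.880) and 0.826 (0.715 to 0.954), and Slc38a2 0.314 (0.164 to 0.568) and 0.633 (0.416 to 0.958). Slc1a4, a carrier of neutral amino acids, had 0.976 in Fit2-WT and 0.635 (0.544 to 0.740) in Fit2-Mut. Glud1, which turns glutamate into a fuel of the citric acid cycle, had 0.916 and 0.910. In subcluster 5, where Slc6a9 was high, Gldc was high too, at 359 and 334 CPM. In subcluster 4, which also kept Slc6a9, Gldc had 16.7 and 14.9 CPM.

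**Figure D3:**
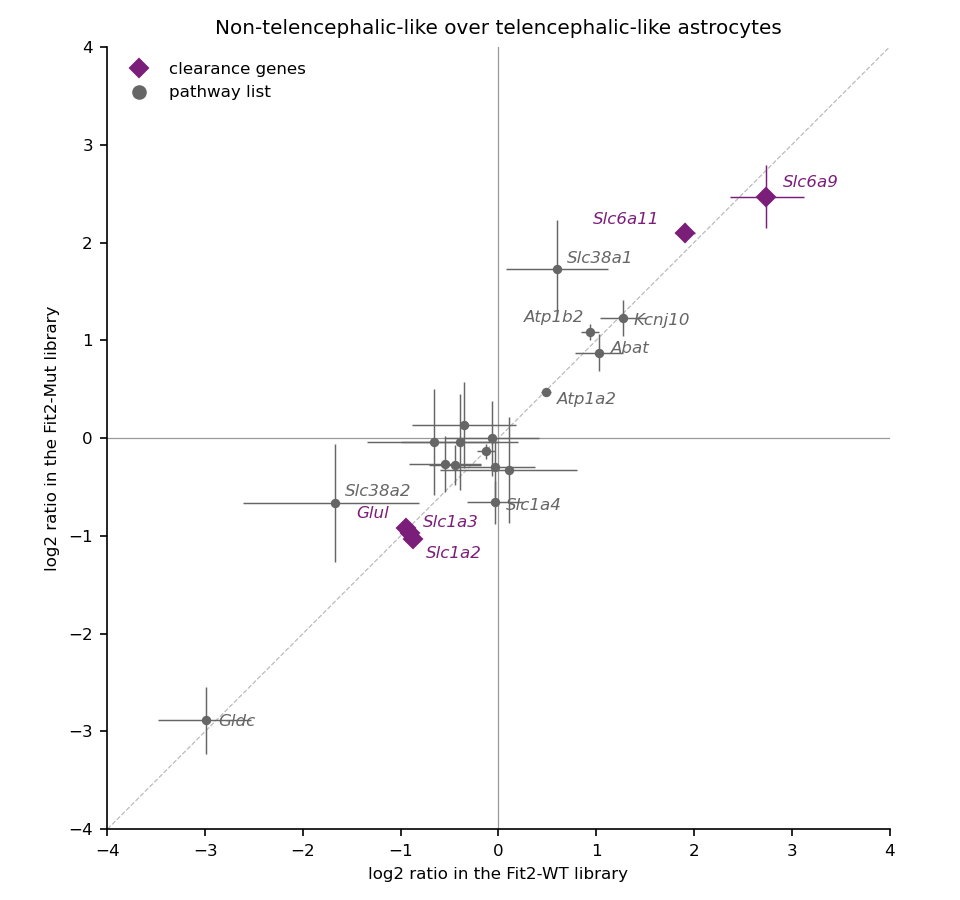
Log2 ratio of non-telencephalic-like over telencephalic-like astrocytes in the Fit2-WT library (horizontal) and the Fit2-Mut library (vertical), with exact 95% intervals. Diamonds are the 5 clearance genes, circles all but 1 of the 18 genes of the wider list with at least 20 UMIs in each library, and the dashed line marks equal ratios. The 3 genes of glutamate and glutamine lie together at lower left, Slc6a11 and Slc6a9 at upper right, and Gldc lies farthest down.

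Between genotypes, the 5 genes differed little in astrocyte-like cells. The ratio of Fit2-Mut over Fit2-WT was 0.935 (0.922 to 0.948) for Slc1a2, 0.899 (0.880 to 0.919) for Slc1a3, 0.978 (0.952 to 1.01) for Glul, 0.990 (0.963 to 1.02) for Slc6a11 and 0.972 (0.891 to 1.06) for Slc6a9. None of the 5 reached 1.5-fold, against 7.16% of all genes tested in these cells (972 of 13577). Among genes with at least 100 UMIs, as each of the 5 had, 145 of 10354 passed it. The median log2 ratio was -0.04 over the 5 genes and 0.01 over all genes tested. The intervals of Slc1a2 and Slc1a3 lie below 1, but they cover counting error only, and the spread between animals cannot be told apart from genotype with 1 library each. Nor can fewer cells of a kind be told apart from less RNA per cell in such a sum: telencephalic-like cells made up 19.6% of astrocyte-like cells in Fit2-WT and 18.3% in Fit2-Mut, non-telencephalic-like cells 21.2% and 29.7%, and low-ribosomal cells 48.9% and 42.9%.

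Within the regions the genotype ratios stayed near 1. In telencephalic-like cells they ran from 0.870 (0.796 to 0.952) for Slc6a11 to 1.05 (1.02 to 1.07) for Slc1a2, and 0 of 5 genes passed 1.5-fold, beside 11.2% of all genes. In non-telencephalic-like cells they ran from 0.835 (0.739 to 0.943) for Slc6a9 to 0.995 (0.954 to 1.04) for Slc6a11, again 0 of 5, beside 11%. Slc1a2 thus lay above 1 in 1 region and below 1, at 0.939 (0.910 to 0.968), in the other. In the low-ribosomal subclusters Glul was at 1.19 (1.05 to 1.34) in subcluster 0 and 1.25 (1.13 to 1.38) in subcluster 3. In subcluster 3 Slc6a9, with 32 and 20 UMIs, had 0.609 (0.330 to 1.10), the 1 ratio of these 10 past 1.5-fold, beside 16% and 17.1% of all genes. In Bergmann glia-like cells Slc1a2 had 0.693 (0.613 to 0.784) and Slc1a3 0.829 (0.769 to 0.893), from 27 and 28 cells, with 0 of 5 past 1.5-fold beside 25.7%. In subclusters 4 and 5 no gene passed it, beside 24.6% and 24.4%.

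**Figure D4:**
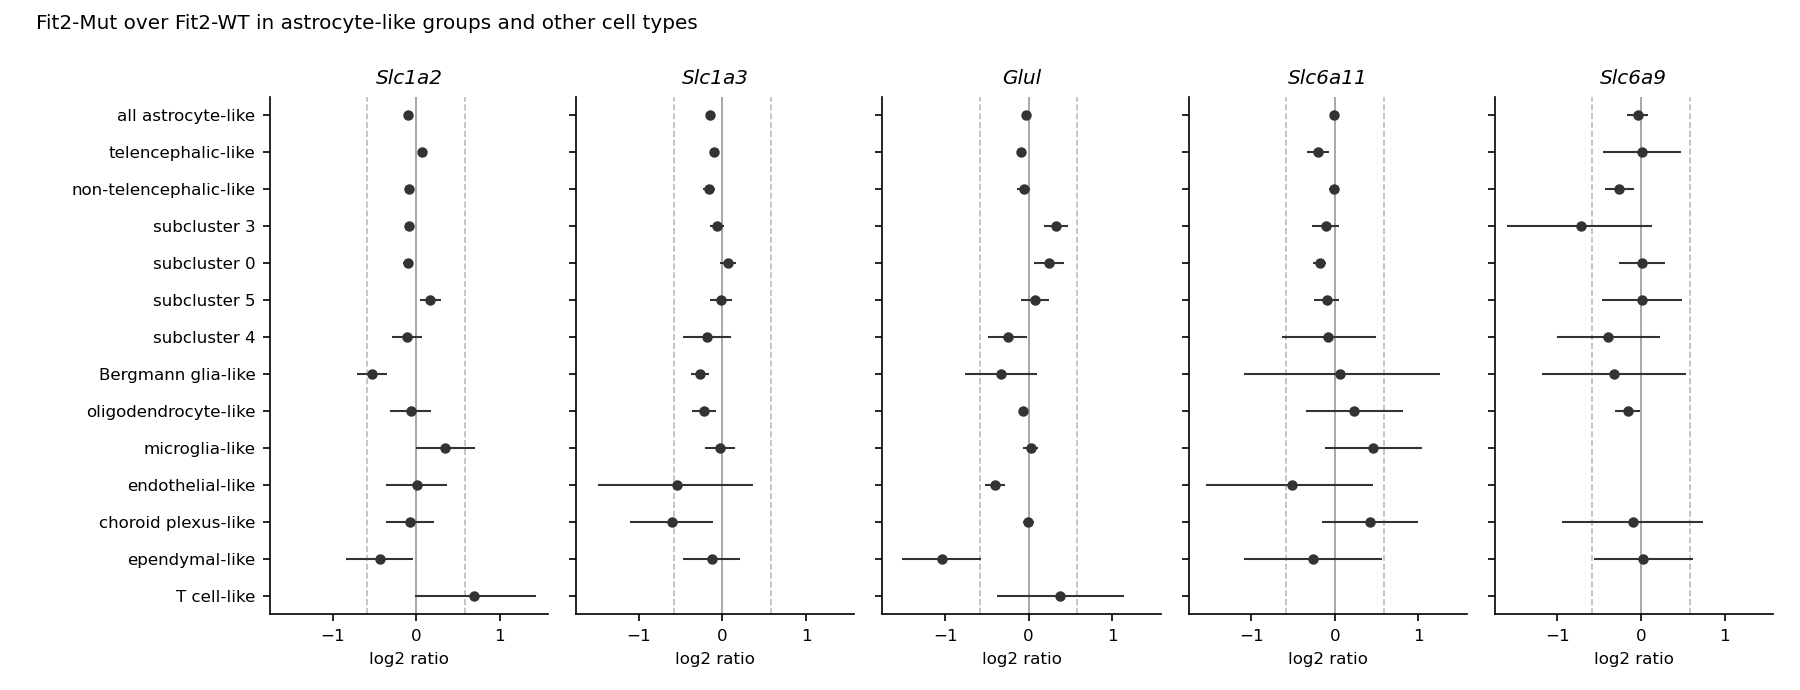
Log2 ratio of Fit2-Mut over Fit2-WT for each gene in astrocyte-like groups and 6 other cell types, with exact 95% intervals for counting error. Dashed lines mark 1.5-fold, and no point is drawn under 20 UMIs. In astrocyte-like cells as a whole all 5 points lie close to 0, and Glul in ependymal-like cells lies farthest from it among ratios whose interval leaves out 1.

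In the other types the genotype ratios of well-counted genes were also close to 1, with few exceptions. In oligodendrocyte-like cells Glul was at 0.954 (0.933 to 0.976) and Slc6a9 at 0.896 (0.809 to 0.991), and 0 of 5 genes passed 1.5-fold, beside 8.27% of all genes. In microglia-like cells, the macrophages of the brain tissue, Glul was at 1.02 (0.951 to 1.08) and Slc1a3 at 0.980 (0.868 to 1.11), with 0 of 4 past 1.5-fold beside 9.9%. In endothelial-like cells Glul was at 0.758 (0.699 to 0.822), with 0 of 4 past 1.5-fold beside 11.2%. In choroid plexus-like cells Glul was at 0.998 (0.951 to 1.05), and Slc1a3 passed 1.5-fold at 0.659 (0.465 to 0.928) from 89 and 58 UMIs, beside 6.06%, but at a level below the free RNA estimate in both libraries. In ependymal-like cells Glul had 100 UMIs in Fit2-WT (89.1 CPM) and 63 in Fit2-Mut (43.4 CPM), a ratio of 0.487 (0.349 to 0.674), the 1 of 5 past 1.5-fold beside 15% of all genes. The free RNA estimate there was 136 and 67.0 CPM, above both levels. Slc1a2 there stood at 98.9 and 73.0 CPM, and free RNA held 0.34 and 0.432 Glul UMIs per Slc1a2 UMI. The part of free RNA in the Glul difference was not tested. In T cell-like cells Slc1a2 was past 1.5-fold at 1.62 (0.987 to 2.69) from 28 and 45 UMIs, 1 of the 2 genes with enough UMIs, beside 18.2%. Its level there lay above the free RNA estimate in Fit2-Mut and not in Fit2-WT. The part of free RNA in this ratio was not tested.

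Of the wider list, 20 of 33 genes had at least 20 UMIs in astrocyte-like cells, with a median log2 ratio between genotypes of 0.05. Past 1.5-fold, beside 7.16% of all genes tested, lay Slc1a1, higher from 7 and 21 UMIs (2.17, 0.888 to 6.04). So did Gad1, which makes GABA in neurons, lower from 11 and 10 UMIs (0.657, 0.250 to 1.70). Slc1a1 encodes a glutamate carrier of neurons, and endothelial-like cells held 328 and 327 of its UMIs. Among those with at least 100 UMIs, the ratios farthest from 1 by their nearer bound were Atp1b2 at 1.13 (1.09 to 1.17), Abat at 1.12 (1.04 to 1.20) and Kcnj10 at 1.11 (1.04 to 1.19) above 1. Gldc at 0.872 (0.799 to 0.953) and Glud1 at 0.960 (0.928 to 0.993) lay below 1. Atp1b2, Abat and Kcnj10 are also higher, and Gldc lower, in non-telencephalic-like cells, whose share was larger in Fit2-Mut; the part of this share in those ratios was not tested.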

How the data were processed

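Whole-brain cells of APP-KI mice were captured in droplets and sequenced from the 3' end in 2 libraries, per the labels' protocols. The deposited matrices hold raw UMI counts per gene and barcode, with no normalization, over all barcodes. The genome was mm10. For Cell Ranger the submitters' processing notes name version 7.0.0, whereas 7.1.0 stands in the headers of the deposited files. The handling of intronic reads is not given in the sources used here, and 3' counts cannot assign reads shared by overlapping genes of 1 strand, such as Gm37310 within Slc1a3.

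Barcodes passing the limits numbered 5333 in Fit2-WT and 5979 in Fit2-Mut, of which 124 and 155 were removed as doublets called by Scrublet in Scanpy 1.11.5. Counts of both libraries were log-normalised, reduced from 2000 variable genes to 30 principal components, and clustered by the Leiden method on 15 neighbours (leidenalg 0.10.2) at resolution 1, or 0.5 within astrocyte-like cells, without the 5 genes and the 33 genes of the wider list. A cluster took a name where at least 3 and at least 0.5 of a list's markers had 2-fold the level of all remaining cells and a UMI in 10% of its cells or more. The smooth muscle-like cluster also met the pericyte list and the neuron-like cluster also held OPC genes.

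Counts were summed per library and cell group and divided by the group's total (CPM). Intervals are exact Poisson for levels, exact conditional for ratios and Clopper-Pearson for shares; they take UMIs as independent and cover counting error only. A gene was called past 1.5-fold at a ratio of at least 1.5 either way, with at least 20 UMIs in both groups together. For shares, each cell was thinned to 1000 UMIs, which left out no cell. Free RNA was the profile of barcodes with 10 to 100 UMIs, its share in a type set by choroid plexus markers, or by myelin genes in choroid plexus-like cells. Scaling alternatives used edgeR 4.0.16 and DESeq2 1.42.0 factors, with no test. Ratio intervals were tested on simulated independent Poisson counts, the model they assume, so that test did not cover spread between cells or animals. The members and lists were chosen with earlier results of these data known. All 5 members are named. Of the wider list, the text names in each of the genotype and region comparisons the 3 highest and 3 lowest genes with at least 100 UMIs by the bound nearest to 1, and those past 1.5-fold; other genes named were chosen after their values were seen. The values of 1 gene of this list and of 1 region marker are not reported here.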

Additional observations from a re-analysis of the deposited data

How the results depend on the processing

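The 5 regional ratios kept their direction and stayed past 1.5-fold in both libraries under every alternative. The genotype ratios all stayed within 1.5-fold, but those of Glul, Slc6a11 and Slc6a9 changed direction under some alternatives. Of the alternative values of single genes, 129 moved by less than the counting interval and 46 by more, and 3 counts of genes changed by over 1.5 times. The values of single genes listed below are those that moved by more. Where only 1 library is named, the value of the other moved by less than its interval. Regional log2 ratios are given as Fit2-WT, then Fit2-Mut. With regions set by marker UMIs per cell they were -1.01 for Slc1a2 (Fit2-WT only), -0.70 and -0.75 for Slc1a3, -1.16 and -1.10 for Glul, 1.18 and 1.35 for Slc6a11, and 1.89 and 1.72 for Slc6a9. With thinned cells they were -0.95 and -1.08 for Slc1a2, -0.62 and -0.83 for Slc1a3, -0.82 and -0.80 for Glul, 1.60 and 2.20 for Slc6a11, and 3.14 for Slc6a9 (Fit2-Mut only). With subclusters at resolution 1.5 they were -0.94 and -1.10 for Slc1a2, -1.04 and -1.0 for Glul and 2.0 for Slc6a11 (Fit2-Mut only). At most 5% mitochondrial UMIs gave -0.92 and -1.13 for Slc1a2 and -0.77 and -0.66 for Slc1a3. Equal weight of cells gave -0.77 and -0.84 for Slc1a3. Limits of 500 UMIs and 250 genes gave -0.98 for Slc1a3 in Fit2-WT and -0.98 for Glul in Fit2-Mut. Genotype log2 ratios with thinned cells were -0.071 for Slc1a2, -0.10 for Slc1a3, 0.034 for Glul and 0.048 for Slc6a11. Without the low-ribosomal subclusters they were -0.049 for Slc1a2, -0.21 for Slc1a3, -0.15 for Glul and 0.035 for Slc6a11. Glul was at 0.020 with equal weight of cells, and Slc1a3 at -0.12 with at most 5% mitochondrial UMIs. Leaving out subclusters 7 and 8, an alternative chosen after seeing the data, moved no genotype ratio beyond its interval. Subtracting free RNA gave Slc1a2 levels in astrocyte-like cells of 5559 and 5194 CPM, Glul 1400.0 and 1360.2 CPM and Slc6a11 1334 CPM (Fit2-Mut). With at least 100 UMIs per gene, 145 genes passed 1.5-fold between genotypes in place of 972, and 1294 and 1424 between regions in place of 3118 and 3049, from fewer genes tested (10354, 5320 and 7043). The cause of the other changes was not tested.

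No paired analysis was possible because each genotype has 1 library, and leaving out a library leaves nothing to compare. The data cannot give the spread between animals, and the intervals understate the error where UMIs gather in a few cells. In the smallest groups, such as Bergmann glia-like cells, counts below 20 UMIs per library leave wide intervals.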

Other observations

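Cluster 24, unnamed and led by Npy, Frzb, Foxd3 and Fabp7 (28 Fit2-WT and 45 Fit2-Mut cells), had Glul at 1358 and 1459.5 CPM and Slc1a3 at 759 and 823 CPM, levels otherwise seen in glia. Its Slc1a2 level was 383 CPM in Fit2-WT and 1076 CPM in Fit2-Mut, and Slc6a11 was at 30.9 and 239 CPM.

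Choroid plexus-like cells fell into 2 large clusters, both with Glul far above the free RNA estimate. Cluster 1, led by Vat1l, Nefh and Myh7, had 256 and 280.2 CPM, and cluster 0, led by Ttr and Folr1, had 176 and 167 CPM, ratios of 1.45 (1.36 to 1.56) in Fit2-WT and 1.68 (1.57 to 1.80) in Fit2-Mut. As log2 these are 0.54 and 0.75, beside a median over all genes of 0.41 and 0.45, so much of the difference was shared by genes at large. The other carriers stayed at or below 12.6 CPM in both clusters.

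Among oligodendrocyte-like cells, cluster 6, led by Klk6 and Nkx2-9, had Slc6a9 at 106 and 101 CPM against 80.8 and 65.4 CPM in cluster 2, led by Opalin and Il33, ratios of 1.31 (1.12 to 1.53) and 1.55 (1.35 to 1.79). Glul was at 0.873 (0.844 to 0.903) and 0.960 (0.933 to 0.989). Slc6a9 passed 1.5-fold in Fit2-Mut only. Others of the 5 genes also passed it, 1 higher and 1 lower in Fit2-WT and 1 lower in Fit2-Mut, so Slc6a9 was not alone in differing. The median log2 ratio over all genes was 0.05 and 0.04. These clusters were compared after their values had been seen.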
